A study of Mus musculus with 6 samples.

Results

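In all, 10 genes of adipose tissue macrophages were read in epididymal white fat of mice with and without an adiponectin-driven Cre on a floxed Fto background. They were taken by gene symbol from the platform annotation and fall into 3 general macrophage genes (Adgre1, Cd68 and Csf1r), 2 resident-like genes (Mrc1 and Cd163), 4 genes of CD11c-positive or lipid-associated macrophages (Itgax, Trem2, Gpnmb and Lgals3), and Arg1. All 10 were found, as 10 of the 18193 genes with a probe set of their own, and they were read by 14 probe sets. The 9 macrophage genes were named for their known roles, but with earlier results of these data known. Arg1 was selected on its measured level, because it read lower in AFO than in control fat on these arrays. The AFO-minus-control values of the 10 genes are therefore given as descriptions, with standard errors and intervals and no p-value.

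AFO mice carried loxP-flanked Fto on both copies together with the adiponectin Cre, and control mice carried the same floxed Fto without the Cre. All were male C57BL/6 mice of 16 weeks on chow, sampled in the fed state. There were 3 independent RNA pools of each genotype, numbered 1 to 3, and every pool was hybridised to its own array. A pool number below stands for 1 AFO and 1 control pool, and the labels do not say what these share. The adiponectin promoter directs the Cre to fat cells, so by design the recombination is not aimed at the macrophages read here. The labels do not give the number of mice in a pool, so the values show the spread between pools and not between animals.

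Macrophages are the most common immune cells of white fat. Their survival depends on the receptor encoded by Csf1r, and they include tissue-resident cells that scavenge glycoproteins and haemoglobin and cells that take up lipid from dying fat cells. The resident cells are known for Mrc1 and Cd163 and the lipid-associated cells for Trem2, Gpnmb and Lgals3. Arg1 encodes arginase 1, the cytosolic enzyme that splits arginine into ornithine and urea. In mice it is best known from liver, where it closes the urea cycle, and from macrophages activated by type 2 cytokines.

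Promoters are shown for 4 of the genes, the members of the 2 pairs whose levels were most alike over the 6 arrays. These pairs are Mrc1 with Trem2 (Pearson r = 0.88) and Cd68 with Lgals3 (r = 0.87), correlations over 6 arrays that share pool numbers, given without a p-value. The windows hold 300 bases, 250 before and 50 after the transcription start, in the direction of the gene, from RefSeq on GRCm38.p6. Capitals mark GAGGAA on either strand, the core bound by PU.1, the lineage factor of macrophages. They also mark TGANTCA on either strand, a loose form of the AP-1 site that allows any middle base. In these windows no match of one motif overlapped a match of the other.
Mrc1, chr2:14229164-14229463, plus strand: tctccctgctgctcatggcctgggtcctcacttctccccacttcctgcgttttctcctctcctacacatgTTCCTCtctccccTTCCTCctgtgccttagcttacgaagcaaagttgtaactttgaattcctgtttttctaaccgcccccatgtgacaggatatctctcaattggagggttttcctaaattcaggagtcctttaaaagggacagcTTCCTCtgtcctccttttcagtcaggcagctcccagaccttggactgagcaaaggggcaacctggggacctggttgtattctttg
Trem2, chr17:48346151-48346450, plus strand: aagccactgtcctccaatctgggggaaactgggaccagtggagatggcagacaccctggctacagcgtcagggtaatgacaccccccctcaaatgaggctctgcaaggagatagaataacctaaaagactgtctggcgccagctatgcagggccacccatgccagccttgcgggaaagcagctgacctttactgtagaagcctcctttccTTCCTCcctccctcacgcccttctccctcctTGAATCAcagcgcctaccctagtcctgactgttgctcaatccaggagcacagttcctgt
Cd68, chr11:69666121-69666420, minus strand: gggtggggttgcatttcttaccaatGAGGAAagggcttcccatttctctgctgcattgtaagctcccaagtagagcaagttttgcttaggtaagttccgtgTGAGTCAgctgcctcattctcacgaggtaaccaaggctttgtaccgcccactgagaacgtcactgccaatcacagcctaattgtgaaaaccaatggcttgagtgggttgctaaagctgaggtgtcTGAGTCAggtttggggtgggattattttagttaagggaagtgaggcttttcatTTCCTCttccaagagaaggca
Lgals3, chr14:47373610-47373909, plus strand: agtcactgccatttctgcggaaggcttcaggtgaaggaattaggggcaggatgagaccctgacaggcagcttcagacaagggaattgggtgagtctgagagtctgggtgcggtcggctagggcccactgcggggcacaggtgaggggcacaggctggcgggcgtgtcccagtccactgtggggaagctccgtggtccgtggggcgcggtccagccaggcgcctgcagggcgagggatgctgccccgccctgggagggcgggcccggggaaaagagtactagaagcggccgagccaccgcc
Of the 10 genes 7 had a promoter entry. The PU.1 core was found in 3 of the 7 windows, those of Cd68, Mrc1 and Trem2, and in 28.3% of all 32851 windows. The loose AP-1 form was found in 4 of the 7, those of Cd68, Itgax, Trem2 and Gpnmb, and in 7.81% of all windows. The Trem2 match, TGAATCA, has A in the middle, where the usual AP-1 site has C or G. Mrc1 had 3 PU.1 cores, which start 180, 167 and 35 bases before the transcription start. Cd68 had 2 AP-1 sites, which start 149 and 24 bases before it, and Lgals3 had neither motif. A match describes letters in the window and not binding.

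The pool 2 arrays stood apart from the others in both genotypes. On the first principal component, with 67.6% of the variance, they lay at 57.46 for AFO and 37.24 for control, against values from -28.01 to -19.58 for the other 4 arrays. B cell markers had a mean level of 8.73 in AFO pool 2 and 8.18 in control pool 2, and no more than 5.80 in the other arrays. Mesothelial markers had 4.74 and 5.47 in AFO and control pool 2, and at least 8.13 elsewhere. Skeletal muscle markers differed between pools of equal number too, at 9.75 in AFO pool 1 and 5.47 in control pool 1. The 8 tested adipocyte markers had mean levels from 11.27 to 11.83 in AFO and from 11.54 to 11.78 in control fat, all on the log2 scale. The 3' minus 5' signal of the Actb control probe sets, a measure of RNA integrity, ran from 0.73 to 1.33 in AFO and from 0.84 to 0.95 in control arrays, with the highest value in AFO pool 3. Fto itself had 6.13, 5.45 and 5.95 in AFO pools 1, 2 and 3 and 6.11, 6.20 and 5.59 in the control pools on the probe set above the filter. The position of that probe set relative to the deleted part of the gene was not examined, so it does not check the genotype.

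Over all 13453 genes tested, AFO was compared with control by limma, and 0 genes passed a Benjamini-Hochberg adjusted p of 0.05, although 139 had an unadjusted p under 0.05. The share called was thus 0%, and 0 of the 10 genes were among the calls. With pool number as a block 2 genes passed, or 0.0149%. These were Bex1 and Mlf1, named after their values were seen, and none of the 10 genes. Fat tissue is a mixture, so a lower reading can come from fewer cells of a type or from less RNA per cell, and these cannot be told apart here.

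Arg1 read lower in AFO fat than in control fat at each of the 3 pool numbers. It had 4.13, 5.05 and 4.17 in AFO pools 1, 2 and 3, against 5.25, 5.47 and 5.41 in the control pools, as log2 levels. The highest AFO value thus lay below the lowest control value, and the AFO pools were more spread (4.45 ± 0.52, SD, n = 3) than the control pools (5.38 ± 0.12, SD, n = 3). The difference was -0.93 log2 units, with a limma standard error of 0.26 (95% interval -1.56 to -0.29), or an AFO level 0.527 times that of control. The AFO pools were lower by 1.11, 0.42 and 1.24 than the control pools of equal number.

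The pools of Arg1 also differed among themselves. Within the AFO arrays pool 2 read 5.05, above pools 1 and 3, and pool 2 was the highest within the control arrays too, at 5.47. Left out in turn, the single arrays moved the difference between -1.22 and -0.77.

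The lower level of Arg1 rests on 1 probe set with a dim signal. Its mean over the 6 arrays was 4.91, just above the filter of 4.88 that a probe set had to reach to be tested, and 2 of the 3 AFO arrays but 0 control arrays lay below that filter. The value table holds no detection calls, and the normalisation draws dim signals together, so the size of the difference is uncertain. Among the differences of all genes tested Arg1 was the 8th from the lowest, which describes the reason for its choice. Only Arg1 of the 10 genes had groups that did not overlap. Over all genes tested, 1.47% had AFO below control without overlap and 2.03% had AFO above control.

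**Figure D1:**
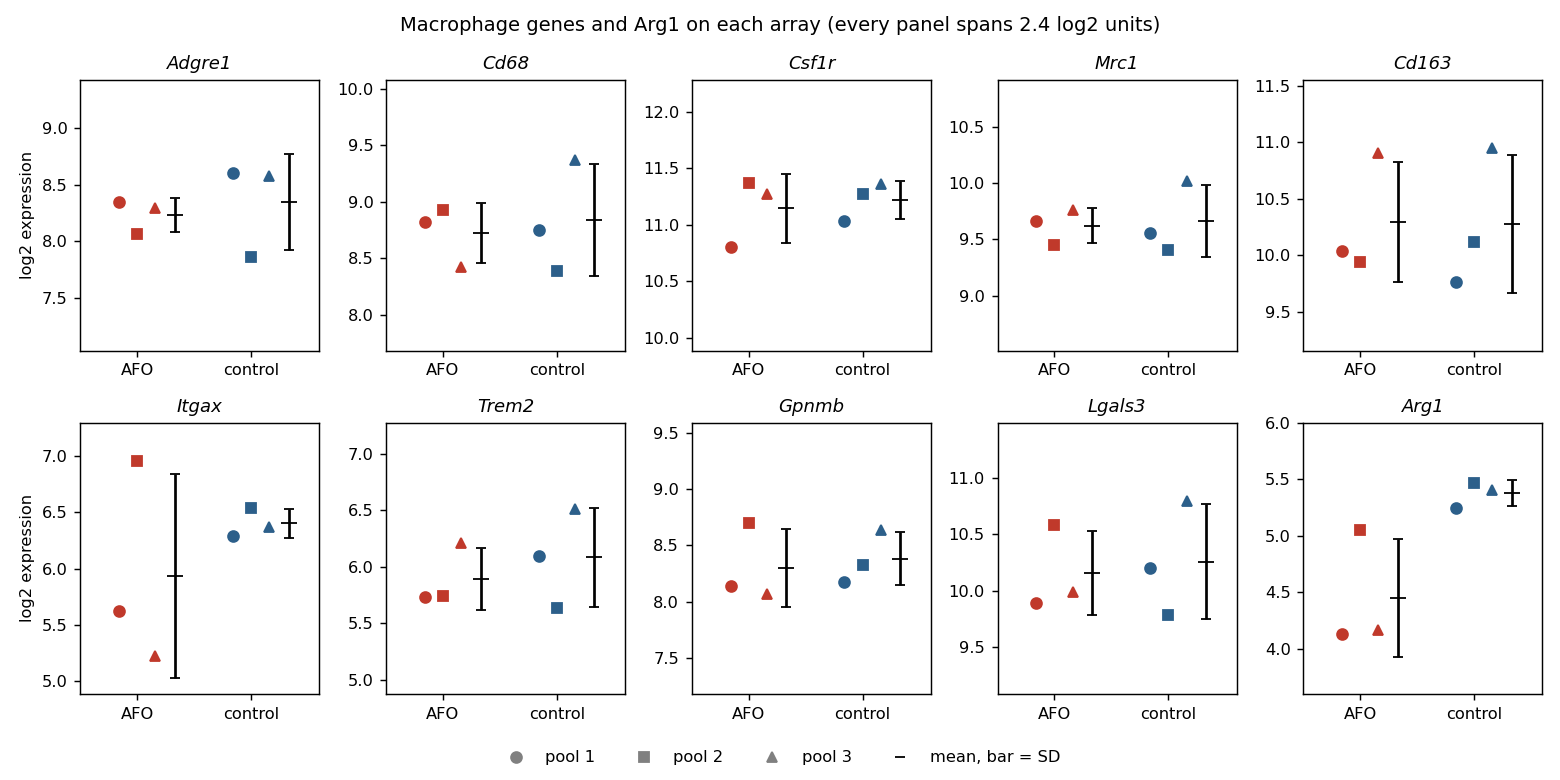
Log2 expression of the 10 genes on each array, AFO left and control right in each panel, with pool 1 as circles, pool 2 as squares and pool 3 as triangles, and the mean with its SD (n = 3) beside each group. Arg1 is the panel in which the groups do not overlap, and Itgax is the panel in which AFO pool 2 (6.95) lies above and AFO pools 1 and 3 (5.62 and 5.23) lie below all 3 control values.

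The 3 general macrophage genes differed little between genotypes and overlapped. Adgre1, which encodes the adhesion receptor used to stain mouse macrophages, had 8.35, 8.06 and 8.29 in AFO pools 1 to 3, against 8.60, 7.86 and 8.58 in the control pools. Both pool 2 arrays were its lowest within their genotype, and the difference was -0.11 (SE 0.23). Cd68, which encodes a glycoprotein of late endosomes and lysosomes, had 8.82, 8.93 and 8.42 in AFO and 8.75, 8.39 and 9.37 in control pools. Its highest and lowest readings were both control arrays, and the difference was -0.11 (SE 0.28). Csf1r, which encodes the receptor for the growth factors CSF1 and IL-34, had 10.80, 11.37 and 11.27 in AFO and 11.03, 11.27 and 11.36 in control pools. AFO pool 1 was the lowest, and the difference was -0.073 (SE 0.18). The other Csf1r probe sets differed by -0.0038 and -0.013 and varied less over the arrays, with ranges of 0.21 and 0.17 against 0.57.

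The resident-like genes showed no shared shift. Mrc1, which encodes the mannose receptor, had 9.66, 9.45 and 9.76 in AFO pools 1, 2 and 3, against 9.56, 9.41 and 10.02 in the control pools, a difference of -0.041 (SE 0.19). Cd163, which encodes the scavenger receptor for haemoglobin bound to haptoglobin, had 10.04, 9.94 and 10.91 in AFO and 9.76, 10.12 and 10.95 in control pools. Pool 3 was the highest in both genotypes and the genotypes differed by 0.022 (SE 0.38). Cd163 was the only one of the 10 genes with a difference above 0 over the 6 arrays. Its 95% interval, from -0.89 to 0.94, was the widest of the 10 after that of Itgax.

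Among the genes of CD11c-positive and lipid-associated macrophages, Itgax had the largest difference of the 9 macrophage genes. Itgax encodes the integrin chain CD11c, which is found on dendritic cells too. It had 5.62, 6.95 and 5.23 in AFO pools 1, 2 and 3, against 6.29, 6.54 and 6.37 in the control pools, with a difference of -0.47 (SE 0.43). The control pools lay close together (SD 0.13) and the AFO pools did not (SD 0.90), with pool 2 above and pools 1 and 3 below every control value. Dendritic cell markers had mean levels from 5.90 to 7.02 in AFO and from 6.05 to 7.09 in control fat, highest in the pool 2 arrays. The single markers did not all follow that mean. Pool 2 minus pools 1 and 3 was 3.7 for Ccr7 and -0.75 for Zbtb46. The part of dendritic cells in the Itgax values was not tested.

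Trem2, which encodes a lipid-sensing receptor of macrophages, had 5.73, 5.74 and 6.21 in AFO pools 1 to 3, against 6.10, 5.64 and 6.51 in the control pools, a difference of -0.19 (SE 0.26). Its second probe set differed by -0.066 and varied by only 0.33 over the arrays. Gpnmb, which encodes a transmembrane glycoprotein of lysosome-rich macrophages, had 8.14, 8.70 and 8.07 in AFO and 8.18, 8.33 and 8.64 in control pools. AFO pool 2 was its highest reading, and the difference was -0.082 (SE 0.22). The second Gpnmb probe set lay below the filter, at 3.41 to 4.03 in AFO and 3.45 to 3.70 in control fat, and it was the 1 of the 14 probe sets that did. Lgals3, which encodes galectin-3, a sugar-binding protein, had 9.89, 10.58 and 9.99 in AFO and 10.20, 9.78 and 10.79 in control pools. Pool 2 was its highest array in AFO and its lowest in control fat, and the difference was -0.11 (SE 0.30).

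**Figure D2:**
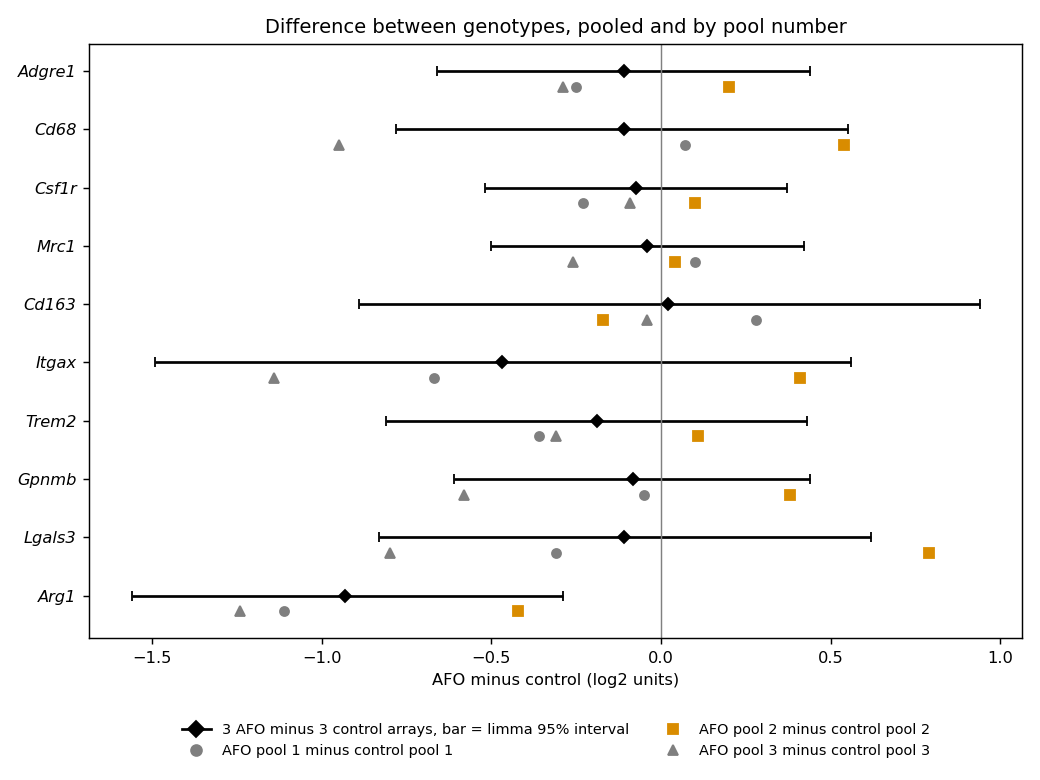
Difference between AFO and control fat for the 10 genes in log2 units, with the mean difference over 3 arrays per genotype as a diamond with its limma 95% interval, and the difference between arrays of equal pool number below it (circle pool 1, square pool 2, triangle pool 3). The Arg1 interval runs from -1.56 to -0.29 and its 3 pool differences lie below 0, whereas the pool 2 difference of Itgax (0.41), Gpnmb (0.38), Lgals3 (0.79) and Cd68 (0.54) lies above 0.

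As a list, the 9 macrophage genes had 8 differences below 0 and 1 above, with a median of -0.11. Over all 13453 genes tested 7300 were below and 6153 above 0, with a median of -0.014. The direction depended on the pool number. The median of the 9 genes was -0.23 in pool 1, where 3 were higher in AFO, 0.20 in pool 2, where 8 were higher, and -0.31 in pool 3, where 0 were higher. The medians of all genes tested were 0.025, -0.023 and -0.038 for the same pools. Control pool 3 stood highest, with a mean level of 9.18 over the 9 genes, against 8.56 to 8.86 in the AFO pools and 8.59 and 8.72 in the other control pools. Without control pool 3 the median of the 9 genes was 0.047, so its sign rests on that array.

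Without the 2 pool 2 arrays, which leaves 2 arrays per genotype, the differences of Arg1 and Itgax were larger. Arg1 then differed by -1.18 (SE 0.19), Itgax by -0.90 (SE 0.19), Lgals3 by -0.56 (SE 0.21) and Cd68 by -0.44 (SE 0.24). Leaving out pool 2 could only enlarge these differences, because there Itgax, Lgals3 and Cd68 read higher in AFO and Arg1 differed least (-0.42). The median of the 9 genes was -0.31, with 8 of 9 below 0, against -0.0093 over all genes tested. Groups did not overlap for 5 of the 10 genes, namely Adgre1, Itgax, Gpnmb, Lgals3 and Arg1, each lower in AFO. In that fit 14.1% of all genes had AFO below control without overlap and 15.3% had AFO above control. By limma adjusted p, 0.0149% of all genes were called lower and 0.662% higher, and 0.290% were called lower in a blocked fit of those 4 arrays by pool number. No call of the 10 genes is read from these fits, which use the contrast on which Arg1 was chosen.

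**Figure D3:**
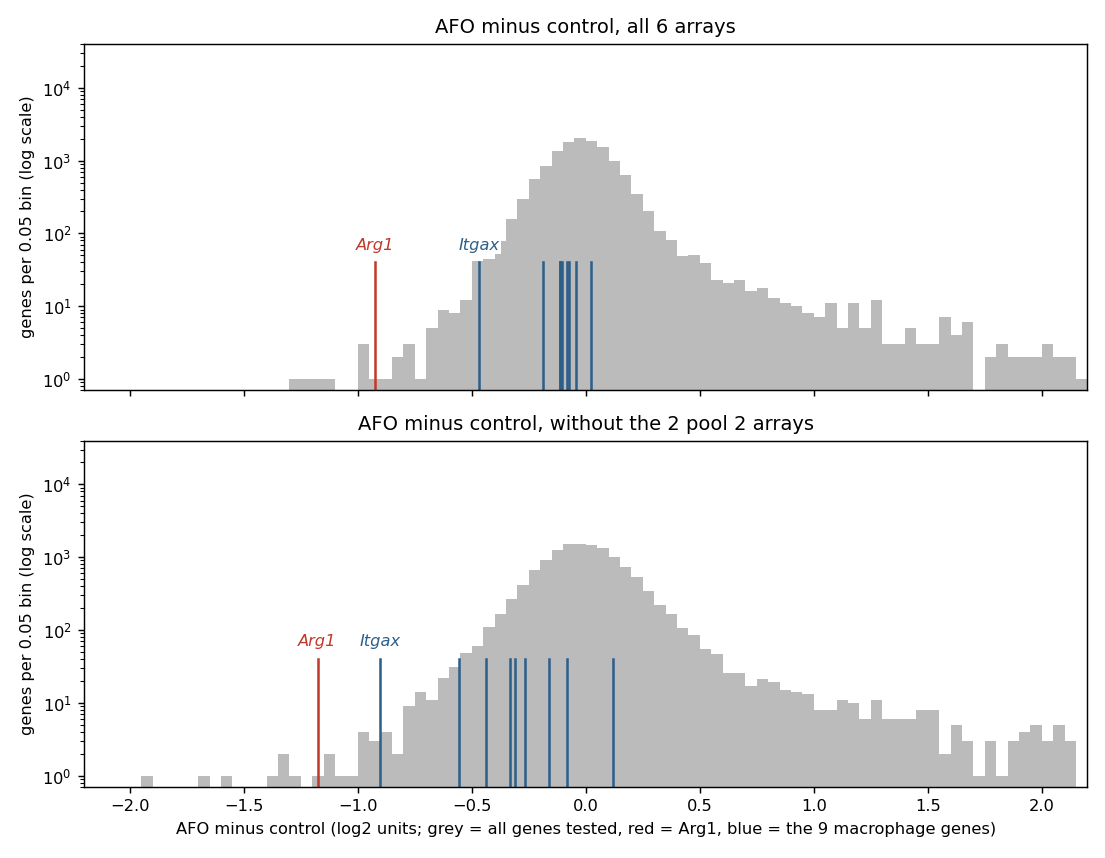
Number of genes by their AFO-minus-control difference in bins of 0.05 log2 units, on a log axis, for all 6 arrays (top) and without the 2 pool 2 arrays (bottom), with Arg1 as a red line and the 9 macrophage genes as blue lines. Arg1 lies at -0.93 and -1.18 and Itgax at -0.47 and -0.90, while the other 8 macrophage genes lie from -0.19 to 0.022 over 6 arrays. Genes beyond the ends of the horizontal axis are not shown.

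The other genes of macrophages were also mostly below 0, with 0 calls. In all, 6 further lists of genes were read, 4 of macrophages, 1 of partners of the 10 genes and 1 of arginine metabolism. Of 61 listed macrophage genes 53 were tested. A further 5 did not reach the filter, and 3 were not analysed here. Of the 53, 46 were below and 7 above 0, with a median of -0.12, and 0 passed the limma test in either direction, as did 0% of all genes. Over all 13453 genes tested 7300 were below 0. Some lists of other cells leaned below 0 too. These were 8 of 8 adipocyte markers (median -0.21), 7 of 7 endothelial markers (median -0.17) and 6 of 6 mesothelial markers (median -0.24). Above 0 were 6 of 6 skeletal muscle (median 2.2), 5 of 5 epididymis epithelial (1.3) and 4 of 7 fibroblast progenitor markers (0.1). The remaining marker lists had medians from -0.34 (hepatocyte) to 0.0013 (eosinophil and mast cell). The part of the tissue's makeup in the macrophage values was not tested. Within pools 1, 2 and 3 the medians of the 53 macrophage genes were -0.078, 0.11 and -0.37. The 0 calls hold with pool number as a block too.

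General macrophage genes outside the 10 had 17 of 19 differences below 0 and a median of -0.095. By pool number, 4, 17 and 2 of the 19 were higher in AFO in pools 1, 2 and 3. Cd14, the receptor for bacterial lipopolysaccharide, had 8.48, 8.14 and 8.44 in AFO pools 1 to 3, against 8.65, 8.43 and 8.74 in the control pools, a difference of -0.25 (SE 0.15). Itgam, the integrin chain CD11b of macrophages and neutrophils, differed by -0.50 (SE 0.39), and Mertk, a receptor that clears dead cells, by -0.091 (SE 0.37). All 13 resident-like genes outside the 10 were below 0 over the 6 arrays, with a median of -0.13. In pools 1, 2 and 3, however, 3, 9 and 0 of the 13 were higher in AFO. Lyve1, a hyaluronan receptor, differed by -0.012 (SE 0.22), the transcription factor gene Maf by -0.22 (SE 0.14) and Timd4, a receptor for phosphatidylserine, by -0.45 (SE 1.03). Each of these genes had a limma adjusted p of 0.999999.

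Among the other lipid-associated and lysosomal genes 8 of 10 were below 0, with a median of -0.11. The tetraspanin gene Cd9 differed by -0.098 (SE 0.18) and the fatty acid binding protein gene Fabp5 by -0.12 (SE 0.17). Mmp12, which encodes macrophage elastase, had 6.44, 5.40 and 5.68 in AFO pools 1 to 3, against 7.47, 4.82 and 8.53 in the control pools. Control pools 1 and 3 lay above and control pool 2 below all AFO values, and the difference was -1.10 (SE 0.90).

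Arg1 is a classical gene of alternative activation, and other genes of that state were read beside it. Of 15 listed 11 were tested, 8 were below 0, 0 had groups that did not overlap and the median was -0.14. Retnla, the secreted resistin-like molecule alpha of cytokine-activated mouse macrophages, had 11.99, 11.72 and 12.49 in AFO, against 12.22, 11.71 and 11.98 in control pools, a difference of 0.098 (SE 0.23). Chil3, a chitinase-like protein of macrophages and neutrophils, differed by -0.15 (SE 0.58), and Mgl2, a lectin of macrophages and dendritic cells, by -0.23 (SE 0.18). Alox15, a lipoxygenase, had 6.30, 5.39 and 6.09 in AFO and 7.83, 6.14 and 6.75 in control pools, a difference of -0.99 (SE 0.46). Each AFO pool was lower than the control pool of equal number, and the groups overlapped. The cytokine genes Il4, Il13 and Il10 lay below the filter. Retnla, Chil3, Mgl2 and Alox15 had a limma adjusted p of 0.999999.

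The ligands, adaptors and regulators of the 10 genes had 8 of 14 differences below 0 and a median of -0.023. The genes of the CSF1R ligands had differences of 0.068 (SE 0.15) for Csf1 and 0.099 (SE 0.32) for Il34. Tyrobp, the adaptor through which TREM2 signals, had 9.88, 10.46 and 9.38 in AFO pools 1 to 3, against 10.03, 10.14 and 10.21 in the control pools, a difference of -0.22 (SE 0.27). As with Itgax, AFO pool 2 lay above and AFO pools 1 and 3 below every control value. Apoe, a lipoprotein ligand of TREM2, differed by -0.045 (SE 0.16), Spi1, which encodes PU.1, by -0.15 (SE 0.28), and Hp, which encodes the haptoglobin that CD163 binds, by -0.41 (SE 0.23). Of these 14 genes 0 passed the limma test.

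In arginine metabolism, Arg1 read lower in AFO at all 3 pool numbers, whereas Arg2 read higher in pools 1 and 3 and lower in pool 2. Arg2 encodes the mitochondrial arginase, a separate gene with the same reaction. It had 7.02, 4.73 and 6.74 in AFO pools 1, 2 and 3, against 4.16, 5.54 and 3.83 in the control pools. AFO pools 1 and 3 lay above every control value and AFO pool 2 lay within the control range, and the difference over 6 arrays was 1.65 (SE 0.71, limma adjusted p 0.999999). Without the 2 pool 2 arrays it was 2.88 (SE 0.20), which leaves out the pool in which Arg2 read lower in AFO. Both control arrays of that contrast lay below the filter of 4.88, so the size of the difference is uncertain. Arg2 reached the filter through its AFO arrays, with a mean of 6.16 against 4.51 in control. For these reasons no p-value is given for Arg2 without pool 2. The second Arg2 probe set, below the filter, had 6.06, 3.07 and 5.12 in AFO and 2.95, 4.13 and 3.00 in control pools, the same order of the groups within each pool. The 5 tested epididymis epithelial markers, of 8 listed, had mean levels of 8.97, 5.29 and 6.65 in AFO pools 1, 2 and 3, against 5.35, 5.31 and 4.90 in the control pools. All 5 were highest in AFO pool 1. In AFO pool 3, Cldn2 (8.44) and Mmp7 (9.85) lay above every control value, while Lcn8 (4.54), Lcn9 (5.78) and Adam7 (4.64) did not. These 5 were named after their values were seen, and their part in the Arg2 values was not tested.

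The other genes of arginine use gave smaller differences. Of 18 listed genes, Arg2 among them, 13 were tested, with 7 above and 6 below 0 and a median of 0.0013. The highest of these differences, 1.65, was that of Arg2. Odc1, which encodes ornithine decarboxylase, the first enzyme of polyamine synthesis, had 10.16, 9.58 and 9.52 in AFO, against 9.72, 9.26 and 9.95 in control pools, a difference of 0.11 (SE 0.25). Oat, which encodes ornithine aminotransferase, differed by -0.021 (SE 0.15). Nos2, the inducible nitric oxide synthase that competes with arginase for arginine, lay below the filter, with 4.65, 4.93 and 4.54 in AFO and 4.99, 4.95 and 4.68 in control pools. The urea cycle genes Cps1, Otc and Ass1 lay below the filter too. Odc1 and Oat had a limma adjusted p of 0.999999.

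**Figure D4:**
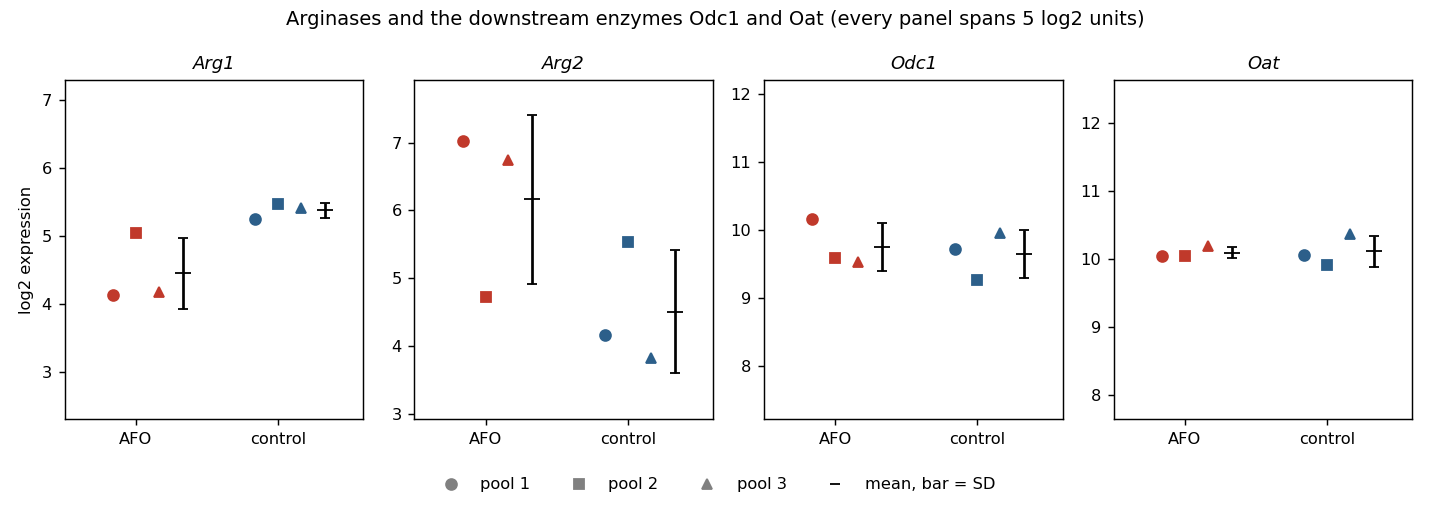
Log2 expression of Arg1, Arg2, Odc1 and Oat on each array, AFO left and control right, with pools as in the legend and the mean with its SD (n = 3). Arg1 is lower in AFO in all 3 pools (4.13 to 5.05 against 5.25 to 5.47), and Arg2 is higher in AFO pools 1 and 3 (7.02 and 6.74) and lower in AFO pool 2 (4.73) than in the control pool of equal number.

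Markers of other cells that can express Arg1 or the macrophage genes were read beside them. The 6 tested hepatocyte markers, of 10 listed, had mean levels from 5.76 to 6.02 in AFO and from 5.78 to 6.90 in control fat, with control pool 3 the highest. Alb, which encodes albumin, lay between 6.76 and 7.33 in the AFO pools, against 7.69, 8.20 and 8.91 in the control pools, without overlap, and a difference of -1.24 (SE 0.32). The liver genes Ahsg, Fga and Fgb lay below the filter. The 5 tested neutrophil markers, of 8 listed, had mean levels from 5.60 to 7.82 in AFO and from 5.87 to 7.03 in control fat, with both pool 2 arrays high. The 4 tested keratinocyte markers, of 6 listed, had mean levels from 5.29 to 5.61 in AFO and from 5.55 to 5.81 in control fat, with Krt5, a basal keratin, lower in AFO without overlap at -0.29 (SE 0.15). The part of these cells in the Arg1 values was not tested, and Alb and Krt5 had a limma adjusted p of 0.999999.

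**Figure D5:**
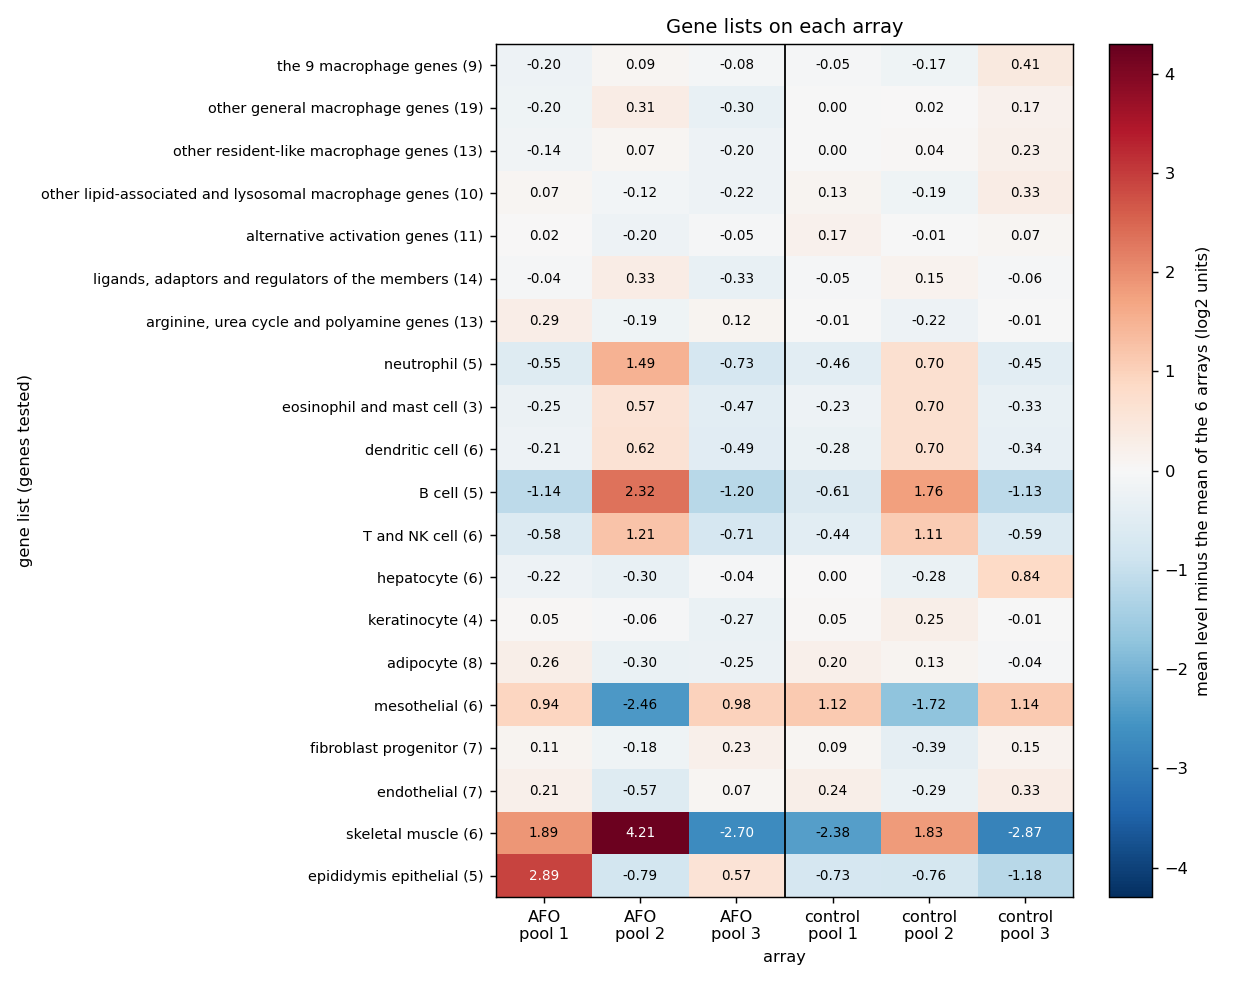
Mean log2 level of each gene list on each array, minus the mean of the list over the 6 arrays, with AFO pools left and control pools right of the line and the number of genes tested in brackets. The macrophage lists vary little between arrays, with the 9 macrophage genes from 8.56 to 9.18, whereas B cell and mesothelial markers set the pool 2 arrays apart. Skeletal muscle markers are high in AFO pools 1 and 2 and control pool 2 (9.75, 12.07 and 9.69), and the epididymis epithelial mean is highest in AFO pool 1 (8.97).

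The 3 genes most like each member over the 6 arrays were found among all genes tested, as a description of 6 arrays without a p-value. Arg1 was most like Mmp16, a membrane-anchored metalloproteinase (Pearson r = 0.9995), Adgrl3, an adhesion receptor (0.9848), and Fam53b (0.9847), which varied by 0.22, 0.47 and 0.33 log2 units against 1.34 for Arg1. Itgax was most like Il7, a cytokine for lymphocytes (r = 0.9948), Plek, the platelet and leukocyte protein pleckstrin (0.9869), and Dhrs11 (0.9831). Lgals3 was most like Adam8, a metalloproteinase of leukocytes (r = 0.9818). The best coefficient of each of the 10 genes, picked from 13453 genes over 6 arrays, was at least 0.9818. Between Arg1 and Itgax the coefficient was 0.82, and between Arg1 and Mrc1 it was -0.13.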

How the data were processed

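Total RNA of 6 pools was labelled as biotin cRNA with a 3' in vitro transcription kit, per the labels' protocols. Log2 expression levels were deposited, made with RMA in Affymetrix Expression Console 1.4, per the submitters' processing notes, so arrays share nearly 1 distribution (medians 5.35 to 5.43) and shifts common to most genes are not visible. The number of arrays limits precision.

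Of 45101 probe sets 34945 had 1 gene symbol, 932 several and 9160 none listed, and 64 were controls. Gene IDs were matched to the mouse RefSeq table (GRCm38.p6) for 99.4%, with 0 symbols updated. Genes were read from the probe set with the highest mean, at or above the 40th percentile (4.88), giving 13453 genes. AFO and control (from titles) were compared, unpaired, by limma 3.58.1 in R 4.3.3 (empirical Bayes with trend, Benjamini-Hochberg), a fit tested on simulated data.

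Equal pool numbers deviated together across genes (correlations 0.5941, 0.7991 and 0.5892, each above 0.1). Pools 1 and 3 also correlated crosswise, at 0.362 and 0.4412, and what equal numbers have in common is not given, so the block is an alternative. The others were filters, normalisations, choice of probe set, moderation, array weights and omitted arrays.

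Members, lists and the named-gene rule were chosen with earlier results of these data known. The text names the members, 20 listed genes, and from the lists described up to 3 genes without overlap or else the smallest p, and other genes only where a result turned on them. Python 3.11.15 made the tables.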

Additional observations from a re-analysis of the deposited data

How the results depend on the processing

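Of 189 values of single members under 19 alternatives, 187 moved by less than 1 SD between replicates. The 2 that moved more were Lgals3 at -0.56 without both pool 2 arrays, with and without the block. A change of filter, moderation or block alone leaves the difference of a kept member as it was. Many of the 187 values could thus not move, and the count is no measure of stability. Arg1 stayed below 0 in all 18 alternatives that kept it, from -1.22 to -0.77, and was removed by a filter at the 60th percentile (5.97). Its sign is no test, because Arg1 was chosen for reading lower in AFO. With groups that do not overlap, leaving out arrays could not change that sign. Itgax ran from -0.98 to -0.12, all below 0. The median of the 9 macrophage genes ran from -0.34 to 0.047 and was above 0 only without control pool 3. Over all genes, 0 were called in 15 alternatives, 2 with pool number as a replicate block, 91 without both pool 2 arrays, 270 without them and with the block, and 0 to 27 with each array left out (27 without AFO pool 2). Of the 10 members 1 had groups without overlap, 0 with the stricter filter, 5 without both pool 2 arrays with or without the block, and 1 to 3 with each array left out, 3 without AFO pool 2 and 2 without control pool 2. Why these counts moved was not tested. The block called 0 of the 10 members over 6 arrays, as did the unblocked fit. The dim signal of Arg1 and the 3 arrays per genotype limit all of these values.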

Other observations

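For a pair of macrophage receptors, as for some other listed macrophage genes, the pool 2 arrays stood apart in both genotypes. Timd4, a receptor for phosphatidylserine on resident macrophages, had 4.70, 7.80 and 4.31 in AFO pools 1, 2 and 3 and 5.44, 7.45 and 5.28 in the control pools. Marco, a scavenger receptor of macrophages in lymphoid tissue, had 5.72, 8.43 and 5.11 in AFO and 6.29, 8.03 and 5.64 in control pools. Both pool 2 arrays lay above all others for each gene, and within pools 1 and 3 both genes read lower in AFO. Without pool 2 the difference was -0.85 (SE 0.21) for Timd4, with both of its AFO arrays below the filter, and -0.55 (SE 0.27) for Marco. That contrast leaves out the pool in which Timd4 (0.35) and Marco (0.40) read higher in AFO. The 9 macrophage genes themselves had a median of only -0.18 for pool 2 minus pools 1 and 3, and B cell markers one of 3.70. Marco was chosen after its values were seen.

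Irf4, a transcription factor of alternatively activated macrophages that fat cells express as well, had 10.43, 7.84 and 10.24 in AFO pools 1, 2 and 3 and 8.95, 9.68 and 9.33 in the control pools. AFO pools 1 and 3 lay above and AFO pool 2 below every control value, as for Arg2 in pools 1 and 3, and the difference over 6 arrays was 0.18 (SE 0.68). It was also chosen after its values were seen. Without the 2 pool 2 arrays the difference was 1.19 (SE 0.19). That contrast leaves out the pool in which Irf4 read lower in AFO (-1.84), so no p-value is given for it.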
